A study of Mus musculus with 3 samples.

Results

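S100 proteins are small calcium-binding proteins of the EF-hand family, and 8 of the 17 S100 family genes in the deposited feature lists are described here: S100a1, S100a4, S100a6, S100a10, S100a11, S100a13, S100a16 and S100b, out of 30406 features shared by the 3 count matrices. They were picked by symbol, with their levels across the cell classes of these same libraries already in view. The levels and class differences of these 8 genes are therefore given as descriptions without p-values. How many of them passed the threshold of the fits is given beside the shares over all genes, and again for alternative settings. Nothing is read from these counts. The data were single-cell RNA sequencing libraries of intrinsic cardiac neurons, the neurons of the ganglia on the heart, dissected from atrial tissue of mice of both sexes with the genotype Baf53b-cre;lox-GFP. Cre under the control of Baf53b (Actl6b), which encodes a subunit of a chromatin remodelling complex of neurons, turns on GFP, and fluorescent cells were sorted. All 3 libraries share this genotype, and no treated or GFP-negative group was part of the design. One library is labelled heart atria, with no section, and 2 months of age. It is called mixed here, since the protocol mentions pooled ganglia, but its own label does not say so. One library came from the anterior section (3 months) and one from the posterior section (4 months), while the protocol speaks of 10 age- and sex-matched mice. Each region was 1 library of pooled tissue, so region, labelled age and library cannot be told apart.

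S100 proteins mostly form dimers that open on calcium binding and then hold on to partner proteins, with annexins, cytoskeletal proteins and ion channels among the best known. S100a10 is the exception, since it no longer binds calcium and stays in the open form. In peripheral ganglia, S100b is a classical marker of satellite glia and Schwann cells, while several other members are known from sensory neurons.

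Of 8361 barcodes, 7091 passed the filters on depth, gene number and mitochondrial counts. Neurons were the 4728 barcodes with at least 10000 unique molecular identifiers (UMIs) in which Snap25, Prph and Stmn2 were each detected (1971 mixed, 1314 anterior and 1443 posterior), at median depths of 57355, 39858.5 and 57249 UMIs. They were split by gates that used no S100 gene. Nos1 neurons had at least 1 Nos1 UMI per 10000 (55, 84 and 61 cells). Of the rest, Npy neurons had at least 4 Npy UMIs per 10000 (1569, 1108 and 873), and Ddah1 neurons had less Npy and at least 1 Ddah1 UMI per 10000 (332, 103 and 435). Nearly every Nos1 neuron also passed the Npy limit (54, 83 and 60 cells). Glia (67, 102 and 87), fibroblasts (59, 51 and 93) and macrophages (23, 9 and 25) were gated by at least 3 detected markers of their list. These other classes were shallow, at median depths of 1699.5 to 7438 UMIs. Actl6b, the gene behind the sort, was at 0.704, 0.830 and 0.682 per 10000 in the neurons and had no UMI in the glia, fibroblasts or macrophages of any library. Levels below are UMIs of a gene per 10000 UMIs of all genes, summed over the cells of a class and always given in the order mixed, anterior, posterior. The 3′ kit counts each transcript at its end, so these values are not scaled by gene length. The libraries shared 2 or 3 barcodes per pair.

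Genes of the family lie close together on mouse chromosome 3, which is why their positions and promoters are shown before the values. In GENCODE vM21 on GRCm38, S100a1 (90511034 to 90514392, minus strand), S100a13 (90514435 to 90524581), S100a16 (90537254 to 90543151), S100a4 (90603771 to 90606045) and S100a6 (90612882 to 90624181, all plus strand) lay within 113148 bases. S100a11 (93520488 to 93526287) and S100a10 (93555080 to 93564643) stood 2896306 bases further along. S100b (76253853 to 76261159, plus strand) is on chromosome 10. All 8 are protein-coding. S100a4 shares up to 156 exon bases with Gm42674 on the same strand, which is a feature of the mixed matrix only and had 0 UMIs in its neurons. Reads in that stretch can be assigned differently in the mixed library, so S100a4 levels there are uncertain against the other libraries. Classes within a library were counted in the same way, but whether the overlap weighed alike on each class was not tested.

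RefSeq promoter entries (GRCm38.p6) matched 7 of the 8 genes, S100a10 being the one without. Among the neuron classes, S100a6, S100a4, S100a16 and S100a13 were all highest in Nos1 and lowest in Ddah1 neurons, and S100b went the other way. The 250 bases before the start are printed for S100a6, S100a4, S100a16 and S100b. They are chr3:90612644-90612893 for S100a6, chr3:90603520-90603769 for S100a4, chr3:90537004-90537253 for the first start of S100a16 and chr10:76253586-76253835 for S100b, all read on the plus strand, 5′ to 3′. Capitals mark matches on either strand to 6 motifs. The first was the TATA box, spelled TATAAA. The CCAAT box was searched by the letters of its name and the GC box as GGGCGG. For the AP-1 site the letters were TGANTCA, and for the E-box they were CANNTG. The last was the paired Phox2 core.
S100a6 promoter: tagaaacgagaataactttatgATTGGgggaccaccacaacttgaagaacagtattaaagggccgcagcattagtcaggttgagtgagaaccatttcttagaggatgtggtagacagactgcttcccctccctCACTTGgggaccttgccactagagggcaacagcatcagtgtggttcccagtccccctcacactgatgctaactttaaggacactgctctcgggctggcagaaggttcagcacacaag
S100a4 promoter: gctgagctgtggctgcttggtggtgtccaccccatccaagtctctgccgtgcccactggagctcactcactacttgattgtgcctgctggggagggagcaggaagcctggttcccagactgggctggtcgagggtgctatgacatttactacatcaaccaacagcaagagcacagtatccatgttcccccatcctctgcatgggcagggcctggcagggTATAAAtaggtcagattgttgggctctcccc
S100a16 promoter: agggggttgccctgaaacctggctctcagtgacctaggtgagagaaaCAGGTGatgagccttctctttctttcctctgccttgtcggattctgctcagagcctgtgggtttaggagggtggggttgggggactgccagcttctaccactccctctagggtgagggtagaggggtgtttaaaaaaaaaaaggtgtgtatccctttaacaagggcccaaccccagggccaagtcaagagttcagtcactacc
S100b promoter: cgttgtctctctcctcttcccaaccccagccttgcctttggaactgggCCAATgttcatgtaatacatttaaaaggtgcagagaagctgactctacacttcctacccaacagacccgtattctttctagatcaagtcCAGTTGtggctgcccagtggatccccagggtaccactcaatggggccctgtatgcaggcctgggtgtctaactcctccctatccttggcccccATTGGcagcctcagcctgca
The S100a4 window held a TATA box 31 bases before the start and no other of these motifs, and 12.4% of 32851 RefSeq windows of this length held that box. S100a6 held 1 CCAAT box and 1 E-box, S100a16 held 1 E-box, and S100b held 2 CCAAT boxes and 1 E-box. CCAAT boxes were in 33.8% of all windows and E-boxes in 66.2%, and no motif of the set was in all 3 of the windows of S100a6, S100a4 and S100a16. The S100a13 window, which is not printed, held 1 E-box and no other of these motifs. A window at a later start of S100a16, also not printed, held 1 GC box, 1 AP-1 site and 4 E-boxes. GC boxes (32.7% of all windows), AP-1 sites (6.75%) and the paired Phox2 core (0.463%) were in none of the printed sequences. These are matches of letters in short windows only.

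S100a6, known as calcyclin and a partner of the ubiquitin ligase adaptor Cacybp, was the most abundant member in Npy and Nos1 neurons and the one that separated the neuron classes most widely in absolute level. In Npy neurons it stood at 42.9, 46.0 and 44.7 UMIs per 10000. In Nos1 neurons it stood at 82.2, 95.1 and 84.5, and in Ddah1 neurons at 11.8, 12.9 and 10.6. The 3 classes did not overlap in any library, and the libraries lay close together within each class. The fitted log2 fold change against Npy neurons was 0.91 (SE 0.05) for Nos1 neurons and -1.94 (SE 0.05) for Ddah1 neurons, that is 1.88-fold higher and 3.85-fold lower (edgeR, 9 sums of 3 classes in 3 libraries). Fibroblasts (26.0, 27.5 and 30.6) came below Npy neurons, while macrophages (14.1, 20.3 and 11.7), glia (12.5, 12.4 and 11.9) and Ddah1 neurons overlapped at the low end of the order.

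**Figure D1:**
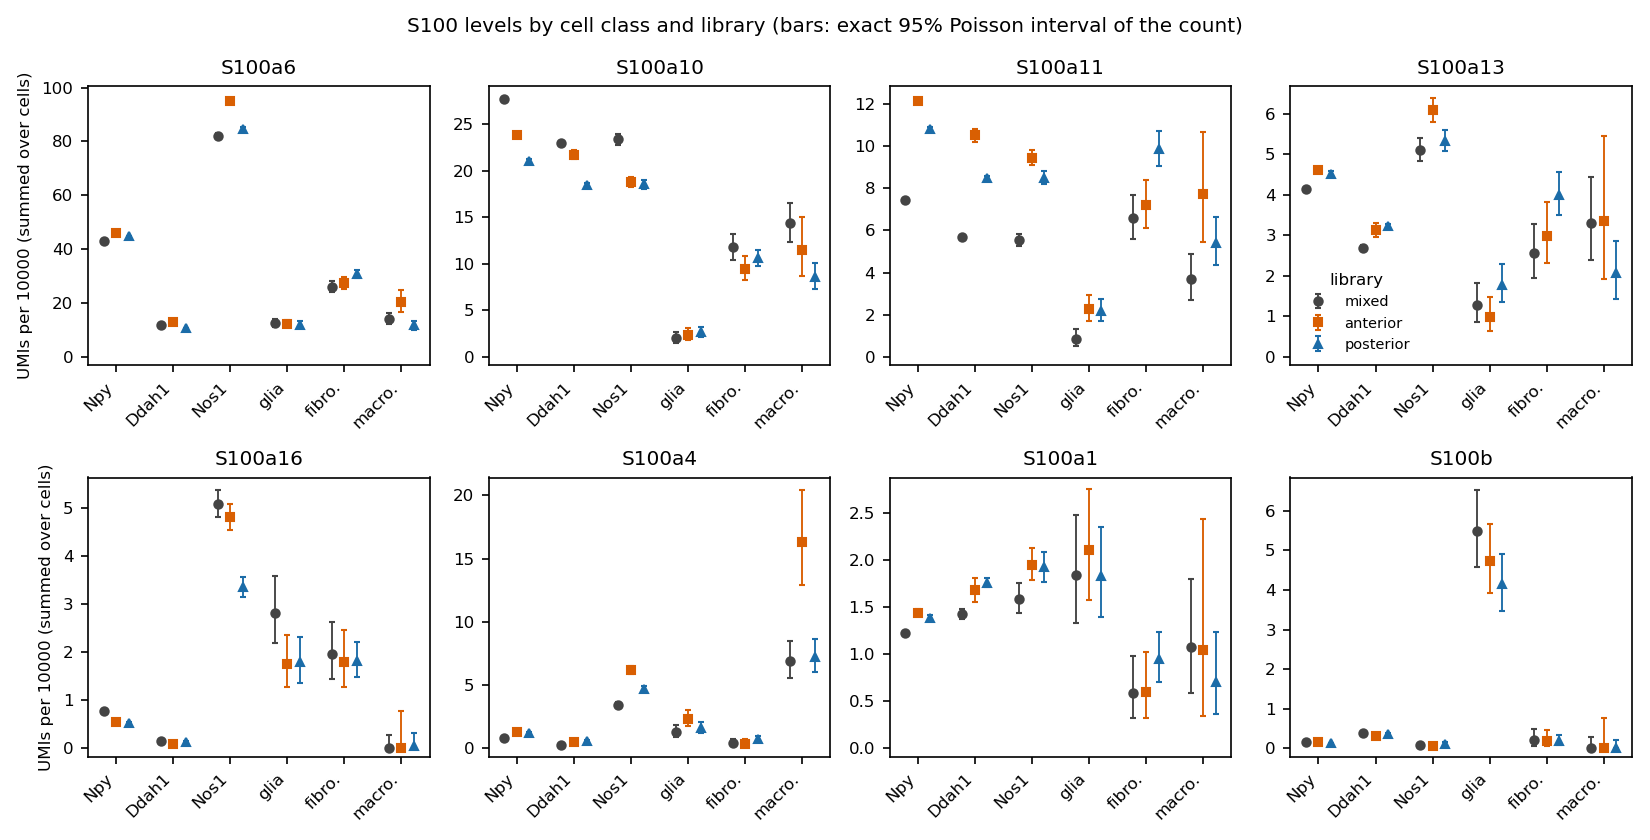
UMIs per 10000 of each S100 gene (y axis, linear, one scale per panel) in Npy, Ddah1 and Nos1 neurons, glia, fibroblasts and macrophages (x axis), 1 point per library with the exact 95% Poisson interval of its count. S100a6 peaked in Nos1 neurons (82.2 to 95.1), S100b in glia (4.15 to 5.48) and S100a4 in macrophages (6.91 to 16.3), whose anterior point rests on 9 cells.

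The S100a6 difference was also seen cell by cell. The median Npy neuron held 44.6, 43.6 and 43.0 per 10000, with the 10th percentile at 14.6, 10.6 and 6.21 and the 90th at 71.3, 81.7 and 78.7. The median Ddah1 neuron held 7.73, 10.1 and 5.77. Their 90th percentiles (28.0, 27.2 and 26.1) reached well into the range of the Npy neurons, so single cells of the classes overlapped. Nos1 neurons had medians of 79.1, 95.5 and 88.7, above the 90th percentile of Npy neurons in every library, and their 10th percentiles of 48.9, 50.6 and 44.9 were all above the median of the Npy neurons.

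**Figure D2:**
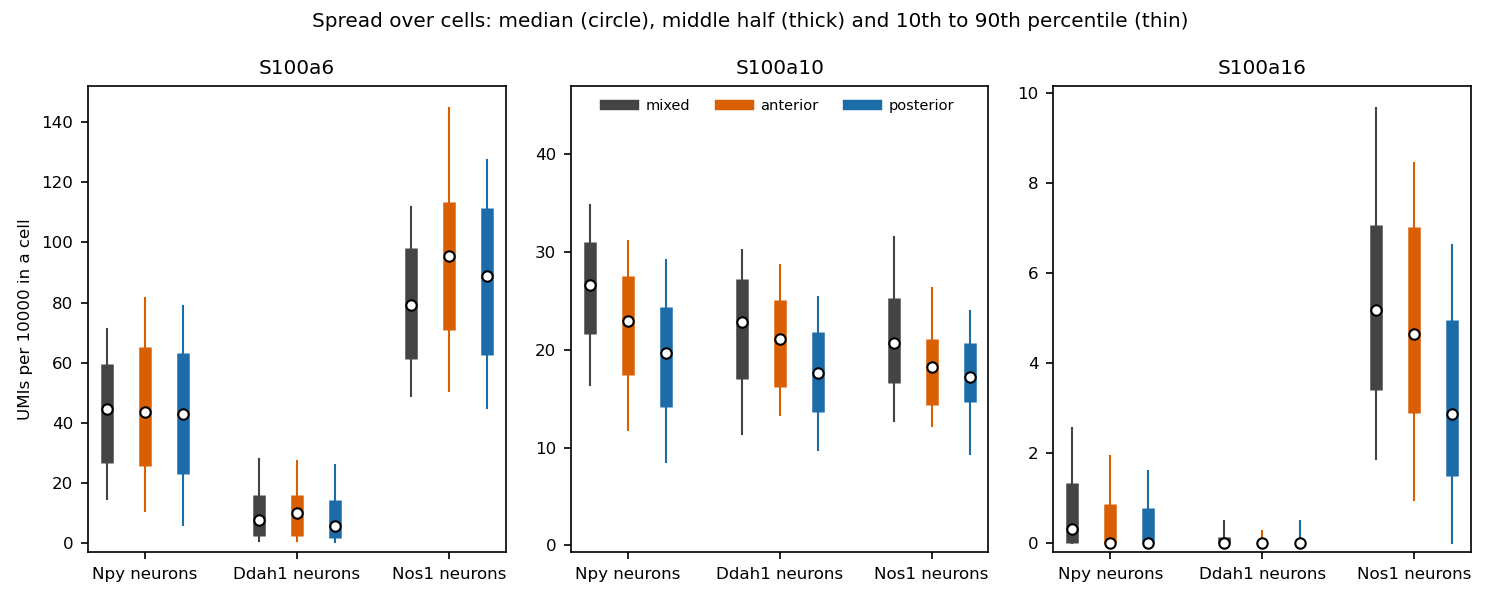
UMIs per 10000 in single cells (y axis) for S100a6, S100a10 and S100a16 in the 3 neuron classes (x axis, 1 bar per library): circles are medians, thick bars the interquartile range and thin lines the 10th to 90th percentile. The S100a6 medians ran from 5.77 to 10.1 in Ddah1 neurons and from 79.1 to 95.5 in Nos1 neurons, while those of S100a10 stayed between 17.2 and 26.6 in all classes.

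Splits within the classes, added after the data were seen, moved S100a6 further. Npy neurons with at least 1 UMI per 10000 of Edn3, the gene of endothelin 3 (87, 128 and 82 cells), held 28.4, 34.9 and 31.4 of S100a6, and those without it 44.1, 47.7 and 46.3. Npy neurons with Tspan8, a tetraspanin (168, 69 and 60 cells), held more, at 57.6, 61.1 and 60.9, against 41.4, 45.2 and 43.6 without. In both splits every library had the same direction. Ddah1 neurons with Mucl1, of which the mixed and posterior libraries had 33 and 31 and the anterior 1, held 6.35 and 7.12 of S100a6 against 12.4 and 10.8 in those without. Among the 4 groups of Npy neurons made by these splits, the class level of S100a6 thus ran from 28.4 to 61.1.

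S100a4, which binds non-muscle myosin, and S100a16, a widely expressed member, went in the same directions as S100a6 at much lower levels. S100a16 stood at 0.780, 0.557 and 0.533 in Npy neurons, 5.09, 4.81 and 3.36 in Nos1 neurons and 0.146, 0.0982 and 0.136 in Ddah1 neurons. No class overlapped another. Its fitted log2 fold change was 2.77 (SE 0.10) in Nos1 and -2.21 (SE 0.12) in Ddah1 neurons against Npy neurons. After each cell was thinned to 10000 UMIs, a UMI of S100a16 was present in 90.9%, 91.7% and 78.7% of Nos1 neurons, 39.1%, 29.0% and 28.4% of Npy neurons and 12%, 5.83% and 9.89% of Ddah1 neurons. Without thinning these shares were 98.2%, 94.0% and 88.5%, then 58.1%, 44.5% and 46.8%, then 27.1%, 15.5% and 22.5%. In macrophages S100a16 had 1 UMI in all, found in the posterior library.

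S100a4 stood at 0.781, 1.26 and 1.22 in Npy neurons, 3.40, 6.18 and 4.72 in Nos1 neurons and 0.304, 0.536 and 0.616 in Ddah1 neurons. The fitted log2 fold change against Npy neurons was 2.07 (SE 0.08) for Nos1 and -1.18 (SE 0.09) for Ddah1 neurons, with the same direction in 3 of 3 libraries. The mixed library had the lowest S100a4 in each of the 3 neuron classes, and it is also the library with the overlapping Gm42674 feature. Whether that overlap lowered its counts was not tested. Vip, the gene of vasoactive intestinal peptide, split the Nos1 neurons in turn. Those with at least 1 Vip UMI per 10000 (23, 61 and 23 cells) held S100a4 at 4.36, 7.30 and 6.92 against 2.84, 3.56 and 3.72 without, and S100a16 at 7.29, 5.28 and 5.41 against 3.8, 3.73 and 2.43. S100a6 went the same way, at 94.4, 96.4 and 106 against 75, 92.1 and 74.7. S100a10 went the other way, at 20.6, 18 and 16.7 against 25.0, 20.7 and 19.4.

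**Figure D3:**
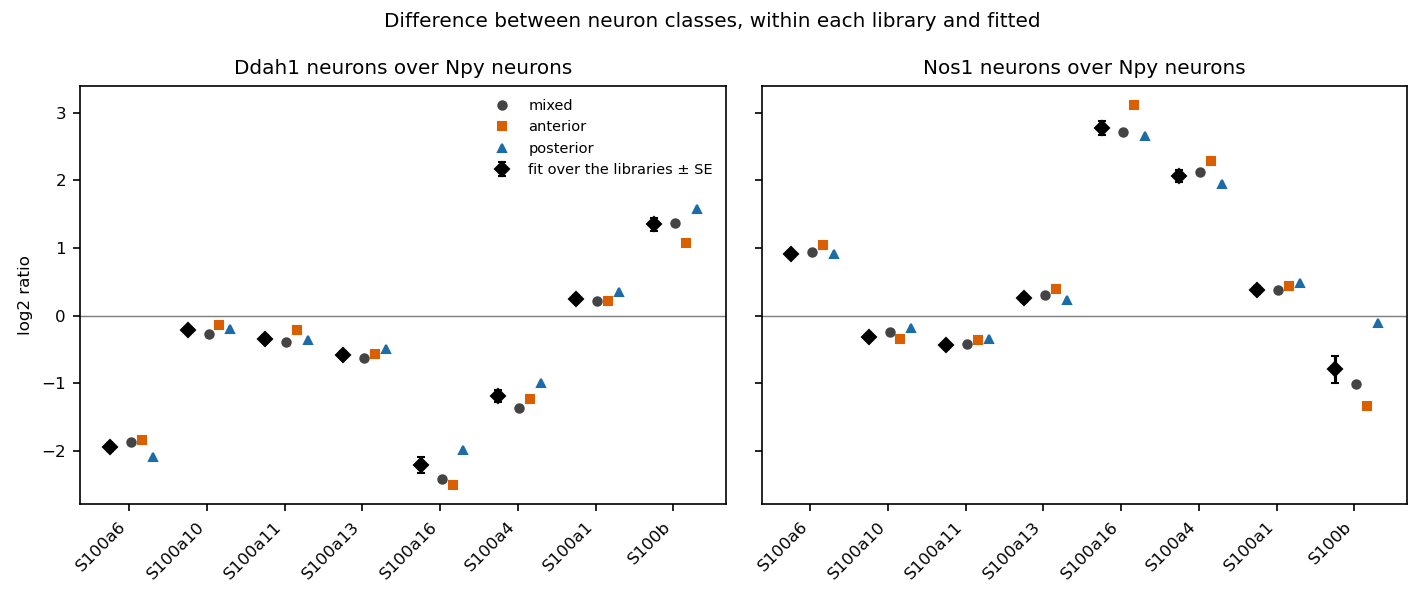
Log2 ratio of the level in Ddah1 neurons (left) or Nos1 neurons (right) to that in Npy neurons (y axis) for the 8 S100 genes (x axis): black diamonds are the edgeR fit with its standard error, coloured points the ratio within each library. S100a6, S100a16, S100a4 and S100a13 lay below 0 on the left and above 0 on the right, and S100b the reverse, with its posterior ratio on the right at -0.10.

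S100a6, S100a4 and S100a16 also varied together between cells of the Nos1 and of the Npy class. Spearman's rank correlation of S100a6 with S100a4 over Nos1 neurons thinned to 10000 UMIs was 0.68, 0.47 and 0.41, and with S100a16 it was 0.43, 0.39 and 0.36. Over Npy neurons the values were lower, at 0.27, 0.38 and 0.31 for S100a4 and at 0.36, 0.29 and 0.29 for S100a16. Over Ddah1 neurons S100a6 with S100a4 gave 0.09, -0.23 and 0.11, and S100a6 with S100a16 gave -0.04, 0.03 and 0.04. All of these genes were at lower levels there, and whether that lowered the values was not tested. The cells of one value share a library, and thinning fixes their depth.

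S100a10 and S100a11, the annexin-binding members, were nearly level across the neuron classes. S100a10, which pairs with annexin A2 and helps to bring several channels to the plasma membrane, stood at 27.7, 23.9 and 21.1 in Npy, 23.0, 21.7 and 18.5 in Ddah1 and 23.4, 18.8 and 18.6 in Nos1 neurons. In Ddah1 neurons it was thus higher than S100a6 in all 3 libraries. The class ranges overlapped between libraries, and within each library the Npy neurons were highest. Fitted log2 fold changes were -0.22 (SE 0.04) for Ddah1 and -0.31 (SE 0.04) for Nos1 neurons. S100a11, a partner of annexin A1, stood at 7.45, 12.2 and 10.8 in Npy, 5.70, 10.51 and 8.48 in Ddah1 and 5.56, 9.45 and 8.51 in Nos1 neurons, with fitted changes of -0.34 (SE 0.05) and -0.43 (SE 0.05).

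Libraries moved these 2 genes as much as classes did. Within every neuron class the mixed library had the least S100a11 and the most S100a10. The mixed matrix was written by another version of the counting software with a different feature list, so a biological difference and a counting difference cannot be told apart. Cell by cell, S100a10 and S100a11 varied together more than S100a10 and S100a6 did. The correlation was 0.32, 0.51 and 0.63 over Npy neurons, 0.29, 0.42 and 0.51 over Ddah1 neurons and 0.21, 0.39 and 0.54 over Nos1 neurons, against 0.13, 0.23 and 0.24 for S100a10 with S100a6 over Npy neurons.

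In glia both genes were lower. They held S100a10 at 2.01, 2.39 and 2.62 and S100a11 at 0.856, 2.27 and 2.20, without overlap with any neuron class. Against all neurons the fitted log2 fold change in glia was -3.44 (SE 0.25) for S100a10 and -2.63 (SE 0.27) for S100a11 (edgeR, 11 sums of neurons, glia, fibroblasts and macrophages). Fibroblasts held S100a10 at 11.8, 9.5 and 10.6 and macrophages at 14.4, 11.5 and 8.60. S100a11 in fibroblasts (6.59, 7.19 and 9.86) overlapped the neuron classes, with a fitted change of -0.26 (SE 0.24).

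S100a13, which takes part in the release of the growth factor Fgf1 with synaptotagmin 1, and S100a1, the family member typical of heart muscle, start close together on opposite strands, 104 bases apart by the RefSeq starts. S100a13 stood at 4.15, 4.62 and 4.52 in Npy, 2.69, 3.14 and 3.22 in Ddah1 and 5.12, 6.1 and 5.33 in Nos1 neurons, and the 3 classes did not overlap. S100a1 stood at 1.23, 1.44 and 1.38 in Npy, 1.43, 1.68 and 1.77 in Ddah1 and 1.59, 1.95 and 1.93 in Nos1 neurons, with overlap across libraries but Npy neurons lowest within each. The pair therefore shared a direction in Nos1 neurons, with fitted log2 fold changes of 0.26 (SE 0.05) for S100a13 and 0.38 (SE 0.06) for S100a1. In Ddah1 neurons they differed in direction, at -0.57 (SE 0.05) and 0.25 (SE 0.05). The gated cardiomyocytes held S100a1 at 5.90 in the anterior library (31 cells) and 7.27 in the posterior (35 cells), above every other class measured there. The summed level of 8 cardiomyocyte markers was 0.184, 0.812 and 1.00 in Npy, 0.105, 0.850 and 0.343 in Ddah1 and 0.283, 1.25 and 0.452 in Nos1 neurons. It was highest in the Nos1 neurons in the mixed and anterior libraries and in the Npy neurons in the posterior one, and its part in the S100a1 differences was not tested.

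S100b, which was not part of the glial gate, was highest in the glia. They held 5.48, 4.74 and 4.15 per 10000, from 128, 119 and 136 UMIs, and no other class came near. Fibroblasts held 0.210, 0.184 and 0.179, from 5, 4 and 10 UMIs. Macrophages had 0 UMIs in each library, with upper limits of 0.283, 0.773 and 0.217 per 10000 (exact 95% Poisson interval), which lie above or near the neuron levels, so no ratio is given. Against all neurons the fitted log2 fold change of S100b in glia was 4.54 (SE 0.19). S100a16 was the other member higher in glia than in neurons, at 2.83, 1.75 and 1.80, by 1.49 (SE 0.23), while it was lower there than in Nos1 neurons in every library. S100a6 (-1.84, SE 0.17) and S100a13 (-1.79, SE 0.28, at 1.28, 0.995 and 1.77) were lower. S100a1 (1.84, 2.11 and 1.83, fitted 0.29, SE 0.22) and S100a4 (1.28, 2.35 and 1.59, fitted 0.49, SE 0.25) differed by about 1 or 2 standard errors.

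Among the neurons, S100b was highest in the Ddah1 class. It stood at 0.398, 0.316 and 0.368 in Ddah1, 0.154, 0.150 and 0.124 in Npy and 0.0765, 0.0599 and 0.116 in Nos1 neurons. The levels of the classes did not overlap, but in the posterior library Nos1 and Npy neurons lay close together (ratio 0.934). A UMI was found in 60.5%, 48.5% and 56.6% of Ddah1 neurons, 37.5%, 28.2% and 30.8% of Npy neurons and 21.8%, 13.1% and 19.7% of Nos1 neurons. At 10000 UMIs per cell these shares were 27.7%, 19.4% and 23.4%, then 12.9%, 11.6% and 8.59%, then 3.64%, 5.95% and 11.5%. The posterior share was thus higher in Nos1 than in Npy neurons at this depth. The fitted log2 fold change against Npy neurons was 1.35 (SE 0.10) in Ddah1 and -0.79 (SE 0.20) in Nos1 neurons, the latter from 20, 16 and 35 UMIs.

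Glial RNA was present in the neurons too, so it is given beside S100b. The summed level of the 8 glial markers was 228, 134 and 154 in the glia. It was 4.38, 2.26 and 1.72 in Npy, 4.46, 2.37 and 2.51 in Ddah1 and 3.23, 2.33 and 2.07 in Nos1 neurons. The glia held 41.7, 28.3 and 37.1 glial-list UMIs for each S100b UMI, Npy neurons 28.4, 15.0 and 13.9, Ddah1 neurons 11.2, 7.49 and 6.81 and Nos1 neurons 42.3, 38.9 and 17.9. Some neurons had no UMI of the glial list. There S100b stood at 0.336, 0.231 and 0.330 in Ddah1 neurons (170, 67 and 238 cells). It stood at 0.0594, 0.0650 and 0.0581 in Npy neurons (868, 764 and 488 cells). In Nos1 neurons it stood at 0.0329, 0.0157 and 0.0412, from 5, 3 and 8 UMIs. The fitted log2 fold change of Ddah1 against Npy neurons was 2.34 in these cells and 1.35 without this restriction. This alternative was added after the data were seen. The part of glial RNA in the S100b of the neurons was not tested. In neurons with 2 or more glial markers S100b was 0.432, 0.655 and 0.486 in Npy and 0.637, 0.746 and 0.550 in Ddah1 neurons. Ddah1 neurons with Mucl1 held S100b at 0.716 (mixed) and 0.767 (posterior) against 0.364 and 0.337 without. The glial list summed to 2.59 and 1.22 in those with Mucl1 and to 4.66 and 2.60 in those without.

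**Figure D4:**
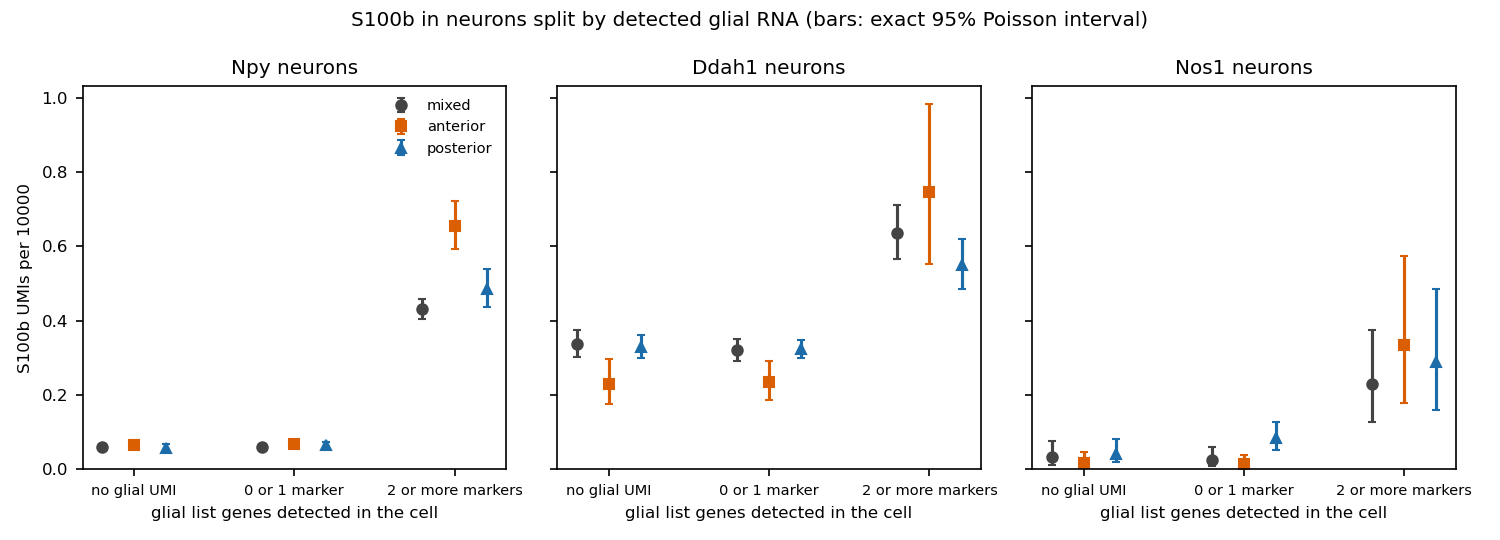
S100b UMIs per 10000 (y axis, shared scale) in Npy, Ddah1 and Nos1 neurons split by how many genes of the 8-gene glial list were detected in the cell (x axis; the middle group includes the first), per library with exact 95% Poisson intervals. Without any glial UMI the Ddah1 neurons stood at 0.231 to 0.336 and the Npy neurons at 0.0581 to 0.0650.

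In summed level, S100a4 was higher in macrophages than in every neuron class, at 6.91, 16.3 and 7.25 from 90, 78 and 123 UMIs. Not every macrophage held it: a UMI was found in 9 of 23 mixed and 5 of 9 anterior macrophages. Over the mixed macrophages, at a median depth of 4717 UMIs, the median level was 0, against 2.65 in the deeper mixed Nos1 neurons. Against all neurons its fitted log2 fold change in macrophages was 2.93 (SE 0.29), and S100a6 (-1.51, SE 0.20) and S100a10 (-1.0, SE 0.26) were lower there. Lymphocytes, of which 18, 11 and 46 were gated, held S100a4 at 0.475, 19.3 and 5.94, above the macrophages in the anterior library. In fibroblasts S100a16 (1.97, 1.80 and 1.82) was higher than in the sum of all neurons (1.51, SE 0.23). It was lower there than in Nos1 neurons (5.09, 4.81 and 3.36) in every library. S100a10 (-1.12, SE 0.22) was lower in fibroblasts than in the sum of all neurons.

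Beside these descriptions stand the counts of the same fits. All 8 genes passed the filter on low counts in both fits. At an adjusted p of 0.05, 2 of the 8 were higher and 6 lower in Ddah1 against Npy neurons, where 13.8% of 13303 genes were higher and 14.7% lower (28.5% in either direction). In Nos1 against Npy neurons 5 were higher and 3 lower, where 6.21% of genes were higher and 7.2% lower (13.4% in either direction). For glia against neurons the counts were 2 and 4, beside 31.4% and 35.7% of 6573 genes (67.1% in either direction). For fibroblasts they were 1 and 4 (30.7% and 34.7%, together 65.4%), and for macrophages 1 and 5 (22.3% and 31.9%, together 54.2%), the 5 including S100b with no UMI there. The median log2 fold change of the 8 genes was -0.45 in Ddah1 and 0.32 in Nos1 neurons, against 0.00 and -0.03 over all genes, and -0.75 in glia against -0.22. The genes were chosen with these class levels in view, so nothing is read from the counts. Several small differences changed with the setting. Without the library as a block S100a1, S100a10 and S100a11 missed the threshold in Ddah1 neurons, and these 3, S100a13 and S100b missed it in Nos1 neurons. With single libraries left out, S100b missed it in Nos1 neurons without the mixed or the anterior library, S100a1 in Ddah1 neurons without the posterior library and S100a6 in fibroblasts without the mixed or the anterior library. S100a10 in Ddah1 neurons also missed it after thinning to 10000 UMIs and in neurons with few markers of other classes, where S100b in Nos1 neurons missed it too.

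Some RNA of other cell types and of the dissociation response differed between the neuron classes, and its part in the S100 differences was not tested. Of 8 tested glial list genes 1 passed the threshold in Ddah1 neurons, higher there. In Nos1 neurons none of the 8 glial, 6 fibroblast and 4 macrophage list genes tested passed it. Of the 8 cardiomyocyte genes, 4 were lower in Ddah1 and 1 higher in Nos1 neurons. Over all genes 28.5% passed in Ddah1 and 13.4% in Nos1 neurons. The summed macrophage list was 0.305, 0.278 and 0.486 in Ddah1 against 0.194, 0.182 and 0.201 in Npy neurons, and 4 of its 4 tested genes (C1qa, C1qb, Lyz2 and Adgre1) were higher in Ddah1 neurons in the edgeR fit. Most of these sums was Adgre1, at 0.293, 0.278 and 0.298 in Ddah1 and 0.181, 0.169 and 0.159 in Npy neurons, and the other 7 markers had no UMI in the anterior Ddah1 neurons. Of the fibroblast list 6 of 6 tested genes were lower there, with sums of 0.0490, 0.148 and 0.108 against 0.0786, 0.202 and 0.361. The list of 17 immediate early and dissociation response genes summed to 12.5, 18 and 19.7 in Npy, 13, 21.3 and 22.6 in Ddah1 and 14.7, 26.1 and 25.9 in Nos1 neurons. Jund was the largest part, at 8.65, 10.9 and 9.76 in Npy, 8.75, 11.9 and 10.6 in Ddah1 and 9.11, 13.2 and 10.7 in Nos1 neurons. Of the 17, 7 were higher and 1 lower in Ddah1 neurons, and 9 higher and none lower in Nos1 neurons. When only the neurons with at most 1 detected marker of each other class were kept, S100a6 stood at 42.9, 45.2 and 48.6 in Npy, 11.7, 12.6 and 10.3 in Ddah1 and 84.3, 88.9 and 85.8 in Nos1 neurons.

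The known partners of the family were tested in the same fits, on lists that were likewise chosen with earlier results of these data known. Their changes are therefore also given without p-values. The counts of these lists stand beside the shares over all genes, and nothing is read from them. Anxa2, the annexin bound by S100a10, stood at 8.96, 5.71 and 5.6 in Npy, 7.44, 4.94 and 4.23 in Ddah1 and 7.09, 4.69 and 4.68 in Nos1 neurons. It was lower in Ddah1 (log2 fold change -0.31, SE 0.05) and in Nos1 neurons (-0.35, SE 0.05), by about as much as S100a10 in the 2 contrasts. In glia Anxa2 was at 3.72, 2.15 and 2.26 and was lower than in neurons (log2 fold change -1.41, SE 0.23). Anxa1, the annexin bound by S100a11, was nearly absent from the neurons, with 6, 26 and 29 UMIs in all Npy neurons, while fibroblasts held it at 6.51, 5.49 and 4.86. S100a11 itself was higher in Npy neurons than in fibroblasts in each library.

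Of the 8 annexins and Ahnak tested in Ddah1 against Npy neurons, 2 were higher and 5 lower, beside 13.8% and 14.7% of all genes. Ahnak, a giant scaffold protein bound by the complex of S100a10 and annexin A2, stood at 0.626, 1.16 and 1.42 in Npy and 0.164, 0.402 and 0.276 in Ddah1 neurons, a log2 fold change of -2.04 (SE 0.10). Anxa5 (-0.63) was the next lowest, and Anxa4 (0.47) and Anxa11 (0.43) were the 2 higher. In glia 2 of 9 were higher, Ahnak (2.93) and Anxa11 (1.68), and 4 were lower, beside 31.4% and 35.7% of all genes. Ahnak in glia (6.12, 8.64 and 7.84) and S100a10 in glia thus differed from the neurons in opposite directions.

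Of 20 tested binding partners and receptors, 1 was higher and 8 were lower in Ddah1 neurons, and 1 (Tpm1, 0.21, named after its value was seen) was higher and 5 lower in Nos1 neurons. Over all genes 13.8% were higher and 14.7% lower in Ddah1 neurons, and 6.21% and 7.2% in Nos1 neurons. Cacybp, the partner of S100a6, was the 1 higher in Ddah1 neurons (0.18, SE 0.06), where S100a6 was at its lowest. The calcium channel gene Trpv6 (-2.78) and the protease gene Plat (-0.76) were lowest. In glia 7 of 16 were higher, led by the glial filament gene Gfap (7.45) and Ndrg1 (4.50), and 6 were lower, led by Syt1 (-4.27) and Fgf1 (-2.84), both partners of S100a13. Over all genes 31.4% were higher and 35.7% lower in glia.

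Of 23 tested genes for other EF-hand sensors and buffers, 2 were higher and 11 lower in Ddah1 neurons (13.8% and 14.7% of all genes). Hpca, the gene of the calcium sensor hippocalcin, had the largest change (log2 fold change 3.34, SE 0.11), followed by Ncald (0.41), while Necab2 (-2.58) and Vsnl1 (-1.04), 2 further neuronal calcium sensors, were lowest. In Nos1 neurons 7 were lower and 2 higher (7.2% and 6.21% of all genes). The 2 higher were Efhd2 (0.34) and Scgn, the gene of secretagogin (log2 fold change 6.88, SE 0.66), both named after their values were seen. In glia 3 of 17 were higher and 12 lower (31.4% and 35.7% of all genes). Rcn1 (5.83) and Calu (1.37) of the secretory pathway were in front, and Cib2 (-3.22) and the calmodulin gene Calm2 (-3.13) were lowest. The median of the list was -0.15 in Ddah1 neurons and -1.67 in glia, against 0.00 and -0.22 over all genes.

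The other S100 genes of the feature lists were close to absent from the neurons. S100a3, S100a5, S100a7a, S100a8, S100a9, S100a14, S100a2, S100g and S100z stayed below 0.05 per 10000 in each neuron class of each library. The list of 10 held these genes and S100pbp, which is not among the 17 family genes. Of the 4 tested among the 10 listed, S100a3 and S100a7a were lower in Ddah1 than in Npy neurons, as were 14.7% of all genes. S100a7a stood at 0.0246, 0.0221 and 0.0247 in Npy and 0.00867, 0.0192 and 0.0103 in Ddah1 neurons (log2 fold change -1.20, SE 0.25).

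The regions, each represented by 1 library, were compared within each neuron class. In Npy neurons the anterior to posterior ratio ran from 1.02 for S100a13 (exact 95% interval 1.00 to 1.04) to 1.21 for S100b (1.09 to 1.36), with S100a6 at 1.03 (1.02 to 1.04) and S100a10 at 1.13 (1.12 to 1.14). These intervals cover counting error only, and no replicate check was possible. Over all neurons of a class, none of the 8 was past 2-fold in Npy neurons, where 0.114% of 6139 genes were, nor in Ddah1 neurons (0.162%) or Nos1 neurons (0.997%). With shares this low over all genes, nothing is read from this count. The shares count genes that reach 20 CPM in 1 of the 2 libraries, a limit that S100b in Npy and Nos1 neurons and S100a16 in Ddah1 neurons did not reach. With the neurons restricted to those with few markers of other classes, the S100a6 ratio in Npy neurons turned to 0.930 and that of S100a1 in Nos1 neurons went from 1.01 to 0.654. In Ddah1 neurons this restriction (40 anterior and 140 posterior cells) took S100a16 to 0.323 (0.144 to 0.631, from 9 and 134 UMIs) and S100b to 0.489 (0.283 to 0.795, from 18 and 177 UMIs), both past 2-fold. In Nos1 neurons S100a16 (1.43, 1.32 to 1.56) and S100a4 (1.31, 1.22 to 1.41) were higher in the anterior library. S100b was lower there (0.518, 0.268 to 0.962, from 16 and 35 UMIs). Nos1 neurons with Vip, 61 of 84 anterior and 23 of 61 posterior, held S100a16 at 5.28 and 5.41 and S100a4 at 7.30 and 6.92. Those without Vip held S100a16 at 3.73 and 2.43 and S100a4 at 3.56 and 3.72, so the S100a16 difference was seen in the neurons without Vip and the S100a4 difference in neither group by as much.

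**Figure D5:**
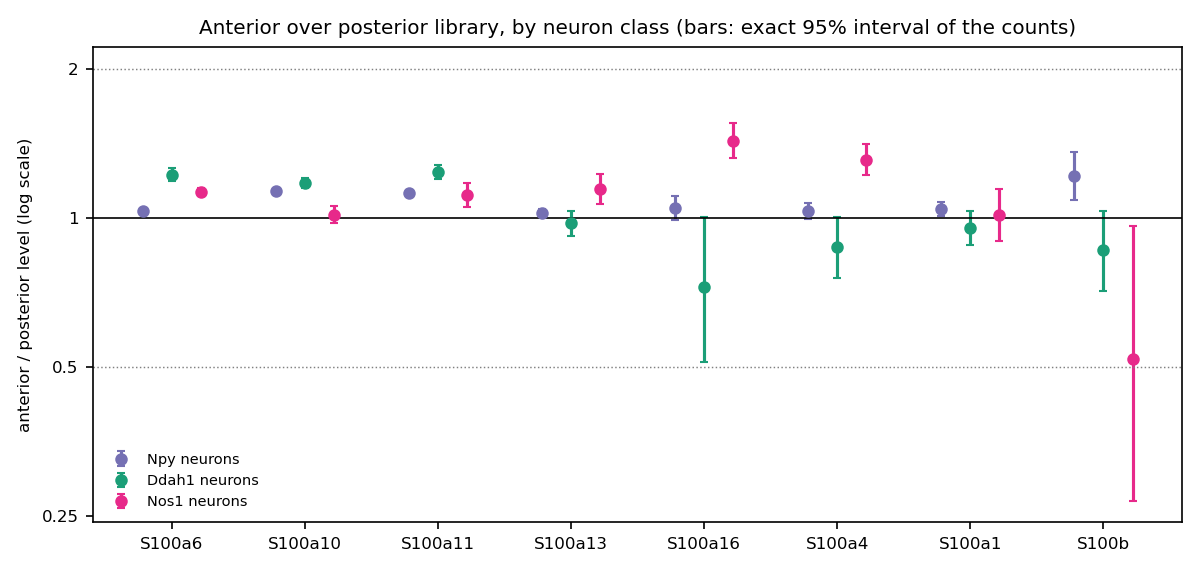
Ratio of the level in the anterior library to that in the posterior library (y axis, log scale) for the 8 S100 genes (x axis) in Npy, Ddah1 and Nos1 neurons, with the exact 95% interval of the counts; dotted lines mark 2-fold. All points lay between 0.518 (S100b in Nos1 neurons, from 16 and 35 UMIs) and 1.43 (S100a16 in Nos1 neurons).

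The genes whose levels were most like each member were found over the 18 sums of 6 classes in 3 libraries, among 7070 genes with at least 50 CPM (counts scaled to a common library total) in some sum. Pearson's r of log2(CPM + 1) was used, and the sums share libraries and classes, so it is a description. S100a6 was followed most closely by Shisal2a (0.86), the gate gene Npy (0.86) and the transcription factor gene Hand1 (0.86). S100b was followed by Rdh5 (0.99), Sema3b (0.97) and Ntrk2 (0.97), S100a16 by Rab34 (0.90), Zfp503 (0.89) and Adamts5 (0.89), and S100a4 by Stom (0.89), Osbpl8 (0.89) and Icam2 (0.87). S100a10 was followed by Polr1d and the ribosomal protein genes Rpl3 and Rpl31 (0.95 each) and S100a11 by Tmsb10 (0.94), Rpl24 (0.92) and Rpl6 (0.90). S100a13 was followed by Agpat4, Reep5 (0.89 each) and Spryd3 (0.87), and S100a1 by Etnk1 (0.95) and Stard4 (0.91). Within the family, S100a10 with S100a13 (0.86) and S100a10 with S100a11 (0.85) were the most alike pairs.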

How the data were processed

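Single-cell libraries of the 10x 3′ kit were deposited as matrices of counts, whole numbers of UMIs per gene and barcode with no normalization, per the file headers written by Cell Ranger 3.1.0 (mixed) and 6.1.2 (anterior and posterior). The submitters' processing notes name Cell Ranger 7.1.0, Seurat 4.4.2 and mm10. The deposited totals were 119825307, 55329380 and 86391988 UMIs.

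Filters required 1000 UMIs and 500 genes or more per barcode and no more than 20% mitochondrial UMIs. No doublet caller was run, and neurons with at most 1 marker of each other class served as the alternative. Non-neuronal classes had at least 3 of 8 markers and at most 1 of each other class, and 1585 kept barcodes fell in no class. Within a factor of 2 of the Npy limit lay 35, 26 and 84 neurons. UMIs were summed per class and library (at least 10 cells, which left out the 9 anterior macrophages) and tested with edgeR 4.0.16 in R 4.3.3 (quasi-likelihood, TMM, filterByExpr, library as a block, Benjamini-Hochberg over all genes tested). The 9 or 11 sums come from 3 libraries. With the library as a block, p-values measure how much the class differences varied from library to library. They do not measure the spread of the levels between libraries. Levels have exact Poisson intervals and shares exact Clopper-Pearson ones, covering counting error only.

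The genes described and the gene lists were chosen with earlier results of these data known. Genes were named by rule: all 8 members, Anxa1 and Anxa2, and of each list the 2 largest and 2 smallest called changes in Ddah1 against Npy neurons and in glia. Results on a few genes are not reported here. Alternatives were DESeq2 1.42.0, no filter, no block, each library left out, other gate limits and thinning.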

Additional observations from a re-analysis of the deposited data

Results flagged for a closer look

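S100b in fibroblasts went opposite ways in the 2 regions. Its level relative to the neurons of the 3 classes together was 1.16 in the anterior library (0.184 against 0.159 per 10000) and 0.887 in the posterior (0.179 against 0.201), and 1.08 in the mixed library. The fibroblast values rest on 4 anterior, 10 posterior and 5 mixed UMIs, and the difference between the regions was not tested.

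S100a8 and S100a9, which encode the subunits of calprotectin and are known from neutrophils, gave a signal in barcodes that no comparison used. Kept posterior barcodes outside every class held 5589 UMIs of the 2 genes, 5576 of them in 7 barcodes and 3939 in a single one. The anterior barcodes of this kind held 114 and the mixed ones 0. One posterior barcode gated as a cardiomyocyte held 307 of the 308 such UMIs of that class, and no neuron of any library held more than 1.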

How the results depend on the processing

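In Ddah1 and Nos1 against Npy neurons no S100 log2 fold change turned direction in 104 alternative values each, and 98 and 96 of them kept their side of the threshold. For glia, fibroblasts and macrophages 77, 72 and 73 of 80 values did. The alternatives reuse the same libraries and genes picked with their levels in view, so nothing is read from these counts. Samples of different groups share only the number 1, so the replicate block is the library, within which the classes were compared. Without this block, 1 member was higher in Ddah1 neurons and 352 and 443 genes were higher and lower, and in Nos1 neurons 3 members were higher and 0 lower, with 234 and 65 genes (0 by edgeR; main counts 1830, 1955, 826 and 958 genes). Thinning the neurons to 10000 UMIs gave 1066 and 1033 genes in Ddah1 and 429 and 359 in Nos1 neurons, where the thinned sums are shallower. Neurons with few markers of other classes gave 543 and 507 genes in Nos1 neurons, and 2 members higher in fibroblasts. With no filter on low counts, 1569 genes were lower in Nos1 neurons, 4011 in glia, 4097 in fibroblasts and 3358 in macrophages, from more genes tested; S100a1 in glia turned from 0.29 to -0.057 and S100b in fibroblasts from 0.06 to -0.26. Leaving out 1 library at a time gave 1 to 2 members and 1092 to 1758 genes higher and 1057 to 1659 lower in Ddah1 neurons, lowest without the posterior library. It gave 442 to 699 genes lower in Nos1 neurons, lowest without the anterior library, and -0.095 to 0.082 for S100b in fibroblasts, negative without the anterior library. Where not stated, the cause was not tested. Region, labelled age and library cannot be told apart, and the non-neuronal classes are small and shallow.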
